A study of Mus musculus with 15 samples.

Results

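The keratins Krt6a, Krt6b, Krt16 and Krt17 are the keratins of wounded and hyperproliferative epidermis, and their messenger RNA was followed in 12 libraries of mouse skin. They were taken by gene symbol from the deposited table of gene levels, where each symbol had 1 row, so the set holds 4 of 54532 genes. Mice labelled Trpv3-knockout or wild type received MC903 for 7 days or no treatment, which gives 3 libraries in each of 4 groups: MC903-treated knockout, untreated knockout, MC903-treated wild type and untreated wild type. Topical MC903, a vitamin D analogue also called calcipotriol, causes an inflammation of mouse skin that resembles atopic dermatitis, and TRPV3 is a calcium-permeable ion channel of keratinocytes. The series describes conditional TRPV3 knockouts, and the labels give neither the cells that lose the gene nor a vehicle, strain, age or sex. Nothing in the labels ties the libraries to individual animals, so every p-value here refers to the spread from library to library, which could be purely technical.

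Keratins build the intermediate filaments of epithelial cells as obligate pairs of a type I and a type II chain. K6a and K6b, the products of Krt6a and Krt6b, are type II chains, and K16 and K17 are the type I chains with which they assemble. In undisturbed mouse skin these chains are largely confined to the hair follicle, the nail and the footpad, with K17 the most widespread of them in the follicle. After wounding or in inflammatory disease keratinocytes between the follicles switch them on, on top of the basal pair K5 and K14 and in place of part of the suprabasal pair K1 and K10.

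The type II genes lie close together on chromosome 15 and the type I genes close together on chromosome 11, all on the minus strand of mm10. Krt6a (ENSMUSG00000058354) spans chr15:101689910-101694307 and Krt6b (ENSMUSG00000023041) spans chr15:101676023-101680287. Krt16 (ENSMUSG00000053797) spans chr11:100246091-100248902 and Krt17 (ENSMUSG00000035557) spans chr11:100256217-100261029. The closeness of Krt6a and Krt6b bears on every count of reads, so their coding sequences were aligned. They were 97.59% identical, with a longest identical run of 280 bases, whereas Krt16 and Krt17 were 69.61% identical. Gaps in an alignment counted as differences. Krt16 was nearer to the basal keratin gene Krt14, at 82.46%, than to Krt17.

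A 90-base coding window in which Krt6a and Krt6b differ most is shown to make visible what separates their reads. Only windows without alignment gaps and within a single exon of both genes were considered. It lies in exon 4 of both genes, at chr15:101692484-101692573 in Krt6a and chr15:101678303-101678392 in Krt6b, on the minus strand. The sequences are from GENCODE M21 on GRCm38 and read 5′ to 3′, and capitals mark the 12 bases that differ.
Krt6a: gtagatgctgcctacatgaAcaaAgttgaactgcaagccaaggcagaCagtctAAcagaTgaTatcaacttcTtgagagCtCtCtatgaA
Krt6b: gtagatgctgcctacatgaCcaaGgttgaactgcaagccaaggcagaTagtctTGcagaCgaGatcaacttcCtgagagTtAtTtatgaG
The stretch below, from exon 1 and 90 bases long, is one in which they do not differ at all, and a read lying within it fits both genes. It is at chr15:101694126-101694215 in Krt6a and chr15:101680101-101680190 in Krt6b.
Krt6a and Krt6b: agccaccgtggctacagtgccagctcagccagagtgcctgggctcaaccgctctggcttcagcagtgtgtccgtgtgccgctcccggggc
For the type I pair the window with most differences under the same limits, again in exon 4, has 22. It is at chr11:100247386-100247475 in Krt16 and chr11:100258481-100258570 in Krt17, and capitals mark the differing bases.
Krt16: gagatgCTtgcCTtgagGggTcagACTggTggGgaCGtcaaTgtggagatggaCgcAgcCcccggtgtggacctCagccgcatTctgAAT
Krt17: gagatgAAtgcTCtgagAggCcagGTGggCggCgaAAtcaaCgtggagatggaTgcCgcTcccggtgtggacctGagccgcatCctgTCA

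Exact sharing with any other gene's exons was counted over all windows of the exons. Of windows of 100 bases 47.5% were shared for Krt6a, 30.62% for Krt6b, 24.28% for Krt16 and 0% for Krt17. Of the 1035 shared windows of Krt6a, 643 were shared with Krt6b and 295 with Gm49428, a gene that overlaps Krt6a on the opposite strand. Krt16 shared 310 of its windows with Gm11597, annotated as a pseudogene, and 46 with Krt14. The levels of Krt6a, Krt6b and Krt16 are therefore uncertain to the extent that reads were split or dropped between copies, and the sources used here do not give how such reads were counted. The library kit does not mark strand, and 471 of the 2418 exonic bases of Krt6a overlap Gm49428, so their reads cannot be told apart there. Gm49428 had an FPKM of 0.212 to 1.44 in MC903-treated knockout libraries, 5.22 to 9.93 in MC903-treated wild-type libraries and at most 0.140 in untreated ones, each far under the Krt6a level of the same library.

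Levels are given as FPKM, fragments per kilobase of gene, which allows comparison between genes. The scale between libraries was not that of total reads and followed median-of-ratios within 0.566%. The libraries held 16869716 to 18485698 reads on genes, so that for a gene 1 kb long a single read equalled 0.0496 to 0.0615 FPKM. The libraries hold keratinocyte RNA by its defining markers, with Krt14 at a mean of 3427 and 1103 FPKM in treated and untreated knockout skin, and 11859 and 846 FPKM in treated and untreated wild-type skin. Trpv3 itself did not follow the genotype labels at rest. It had 3.17, 3.64 and 2.62 FPKM in untreated knockout libraries, against 2.06, 2.71 and 1.13 FPKM in untreated wild-type libraries (limma adjusted p = 0.10). After MC903 it had 6.82, 6.78 and 4.73 FPKM in knockout libraries and 16.1, 16.97 and 19.0 FPKM in wild-type libraries (limma adjusted p = 0.00032). Knockout therefore means the library labelled knockout throughout, and each direction between genotypes rests on that label. The spread between replicates exceeded read-sampling noise in every group, most of all for untreated wild-type replicate 3. That library was the lowest of its group for all 4 wound keratins, and its summed level of hair shaft and inner root sheath genes was 1.68 FPKM, the lowest of the untreated wild-type range that reaches 255 FPKM.

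MC903 raised all 4 wound keratins in both genotypes, to levels among the highest of any gene in the skin. The test was limma on log2(FPKM + 0.5) across 17646 genes, with Benjamini-Hochberg adjustment over all of them and a threshold of 0.05, and the 4 genes passed its filter on low values. In the knockout comparison 25% of all genes passed in the upward direction and in the wild-type comparison 32.6%, so a count of 4 called higher is read beside a response that involved much of the transcriptome. The size of the change separated these genes from most: their median log2 fold change was 6.22 in knockout skin and 9.34 in wild-type skin, where the medians of all genes were -0.00 and 0.02.

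Krt6a, at rest the more abundant type II gene of this set, had 918, 1076 and 730 FPKM in MC903-treated knockout libraries, against 16.9, 14.1 and 8.01 FPKM in untreated knockout libraries. Wild-type skin gave 2524, 2298 and 2461 FPKM with MC903 and 7.86, 10.4 and 5.58 FPKM without. The treated and untreated ranges lay far apart in both genotypes. The log2 fold change was 6.12 ± 0.27 (SE, limma adjusted p = 6.6e-08) in knockout skin and 8.21 ± 0.27 (limma adjusted p = 3.6e-09) in wild-type skin.

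Krt6b, its near-identical neighbour, had 934, 1179 and 785 FPKM in MC903-treated knockout libraries and 5.95, 5.61 and 1.51 FPKM in untreated ones. Its wild-type values were 4022, 2851 and 2846 FPKM with MC903, against 1.17, 1.80 and 0.257 FPKM without. It was the scarcest of the 4 in untreated skin, where the wild-type libraries held 52, 81 and 11 of its reads. Its log2 fold change was 7.79 ± 0.46 (SE, limma adjusted p = 5.6e-07) in knockout skin. In wild-type skin it was 11.13 ± 0.46 (limma adjusted p = 1.7e-08), which ranked 2 by size of change among all 17646 genes.

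Krt16, the type I chain used as a marker of psoriatic and wounded epidermis, had 1390, 1606 and 1064 FPKM in MC903-treated knockout libraries and 28.2, 17.9 and 8.20 FPKM in untreated ones. In wild-type skin it had 6555, 4727 and 4499 FPKM with MC903 and 4.11, 6.21 and 1.10 FPKM without. The treated wild-type libraries were thus the highest and the untreated wild-type libraries the lowest of the 4 groups. The log2 fold change was 6.33 ± 0.51 (SE, limma adjusted p = 4.1e-06) in knockout skin. It was 10.46 ± 0.51 (limma adjusted p = 4.3e-08) in wild-type skin, ranking 4 by size of change, and the mean level of Krt16 there ranked 4 among all genes tested.

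Krt17, which outer root sheath cells of the follicle express at rest, started highest and changed least. It had 596, 613 and 489 FPKM in MC903-treated knockout libraries and 133, 115 and 92.4 FPKM in untreated ones. In wild-type skin it had 1542, 1421 and 1753 FPKM with MC903 and 75.6, 87.7 and 51.9 FPKM without. No treated library overlapped an untreated one, as for the other 3 genes, while upward non-overlap of this kind held for 32% of all genes in knockout skin and 33% in wild-type skin. The log2 fold change of Krt17 was 2.32 ± 0.20 (SE, limma adjusted p = 6.3e-06) in knockout skin and 4.47 ± 0.20 (limma adjusted p = 2.3e-08) in wild-type skin. In this bulk tissue more cells with a keratin and more RNA per cell cannot be told apart.

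Markers of other cell types moved with MC903 as well. Of 6 fibroblast markers 3 fell and 1 rose in knockout skin, summing to 1681 to 2161 FPKM treated and 4427 to 5128 FPKM untreated, and all 6 fell in wild-type skin, at 519 to 645 FPKM treated and 1100 to 1987 FPKM untreated. The 1 that rose in knockout skin was Pdgfra, named after its values were seen, and it was not called with scaling to TPM or by total reads, or without any of the untreated knockout replicates, treated knockout replicate 2 or 3, or treated wild-type replicate 3. Of 4 adipocyte markers 3 fell in knockout and 4 in wild-type skin, and of 4 sebaceous gland markers 3 fell in each. All 4 skeletal muscle markers fell in knockout skin and 2 in wild-type skin, where both other scalings gave 4 and leaving out treated replicate 1 or 3 or untreated replicate 3 gave 0. Of 5 leukocyte markers 4 rose in knockout skin, and 1 rose and 2 fell in wild-type skin, where both other scalings gave 4 that fell. The leukocyte markers summed to 696 to 1103 FPKM in treated and 475 to 519 FPKM in untreated knockout skin, and to 287 to 345 FPKM in treated and 401 to 544 FPKM in untreated wild-type skin. The sebaceous gland markers summed to 903 to 1247 FPKM in treated and 2250 to 2555 FPKM in untreated knockout skin, and to 385 to 522 FPKM in treated and 2629 to 3422 FPKM in untreated wild-type skin. The muscle markers summed to 337 to 525 FPKM in treated and 1054 to 1442 FPKM in untreated knockout skin, and to 831 to 1319 FPKM in treated and 1385 to 2762 FPKM in untreated wild-type skin. The adipocyte markers summed to 61.0 to 97.8 FPKM in treated knockout skin and 65.0 to 80.8 FPKM in treated wild-type skin. In these comparisons 25% of all genes rose and 23% fell in knockout skin, and 32.6% rose and 30.3% fell in wild-type skin. The part of these shifts in the keratin changes was not tested.

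**Figure D1:**
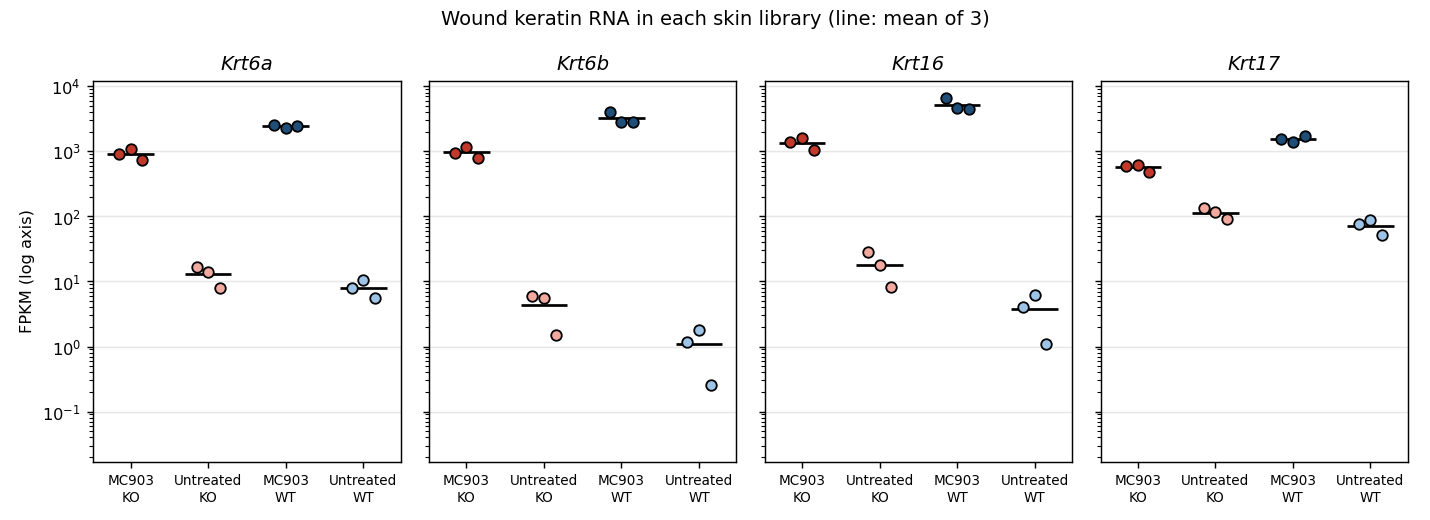
FPKM of Krt6a, Krt6b, Krt16 and Krt17 in each of the 12 libraries on a log axis, with points for libraries and lines for group means. MC903-treated libraries sit far above untreated ones for every gene, and Krt17 starts from the highest untreated level.

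The order of the 4 genes turned over with treatment. In untreated wild-type skin the mean levels were 71.7 ± 18.2 FPKM for Krt17, 7.94 ± 2.40 FPKM for Krt6a, 3.81 ± 2.57 FPKM for Krt16 and 1.07 ± 0.774 FPKM for Krt6b (SD, n = 3), and the values of Krt6a and Krt16, as those of Krt16 and Krt6b, overlapped between libraries. In MC903-treated wild-type skin Krt16 led with 5260 ± 1127 FPKM, before Krt6b with 3240 ± 677 FPKM, Krt6a with 2428 ± 117 FPKM and Krt17 with 1572 ± 168 FPKM, and no 2 neighbours in that order overlapped. In untreated knockout skin Krt17 averaged 113 ± 20.2 FPKM, Krt16 18.1 ± 10.0 FPKM, Krt6a 13.0 ± 4.55 FPKM and Krt6b 4.36 ± 2.47 FPKM, with Krt16 and Krt6a overlapping. In MC903-treated knockout skin Krt16 averaged 1353 ± 273 FPKM, Krt6b 966 ± 199 FPKM, Krt6a 908 ± 173 FPKM and Krt17 566 ± 67.2 FPKM, where Krt16 overlapped Krt6b and Krt6b overlapped Krt6a. These overlaps are between libraries, and within every single library the 4 genes kept the order of their group means. Krt16 and Krt6a were close in untreated knockout replicate 3, at 8.20 and 8.01 FPKM.

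Ratios of FPKM within a library, with 0.5 added to each gene or sum, measured this turnover with little influence of the scaling between libraries. The ratio of Krt6b to Krt6a had a geometric mean of 1.06 in treated knockout skin and 0.332 in untreated knockout skin. The wild-type ratio was 1.32 with MC903 and 0.174 without. On the log2 scale the ratio was 2.30 higher with MC903, averaged over genotypes (exact permutation test within genotypes, two-sided p = 0.005, the smallest that 400 assignments allow). Krt6b therefore rose more than Krt6a, and the 0.5 added makes the untreated ratio less extreme. How far reads shared between the copies move the ratio was not tested.

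The ratio of Krt16 to Krt17 moved further. Its geometric mean was 2.37 in treated and 0.148 in untreated knockout skin, and 3.31 in treated and 0.0521 in untreated wild-type skin. The log2 ratio was 5.00 higher with MC903 (exact permutation test, two-sided p = 0.005). The type II genes summed, over the type I genes summed, stood near parity after MC903, at 0.974 in knockout and 0.831 in wild-type skin, and at 0.130 and 0.124 in untreated knockout and wild-type skin. This log2 ratio was 2.83 higher with MC903 (exact permutation test, two-sided p = 0.005). Among these 4 genes untreated skin was dominated by the type I gene Krt17, and treated skin held RNA of both types in similar amounts. The 5 ratios and shares tested this way kept an adjusted p of 0.005.

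**Figure D2:**
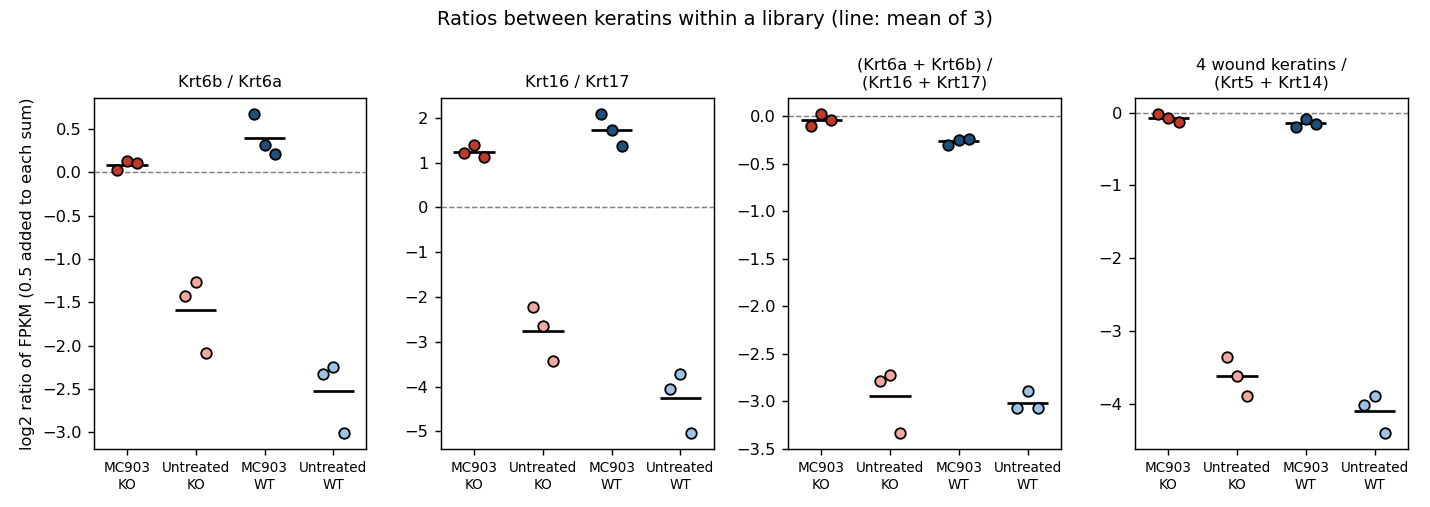
Within-library log2 ratios of FPKM, 0.5 added to each term, of Krt6b to Krt6a, Krt16 to Krt17, summed type II to type I wound keratins, and the 4 wound keratins to Krt5 plus Krt14, with points for the 12 libraries and lines for group means. All 4 ratios are higher in every MC903-treated library than in any untreated library.

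Wound keratins went with a change of the whole keratin complement. Of the summed FPKM of 54 keratin genes they made up 35.8% ± 1.63 in treated and 2.06% ± 0.347 in untreated knockout skin (SD, n = 3). In wild-type skin the share was 38.2% ± 2.76 with MC903 and 2.08% ± 0.575 without. The share was 35.0 percentage points higher with MC903 (exact permutation test, two-sided p = 0.005). Suprabasal keratins gave way in share, with 22.6% in treated and 62.0% in untreated knockout skin, and 15.96% in treated and 45.9% in untreated wild-type skin. Their summed level was lower with MC903 only in knockout skin, at 1655 to 3064 FPKM treated and 4059 to 4703 FPKM untreated. In wild-type skin that sum was 2614 to 7440 FPKM treated and 1464 to 2660 FPKM untreated. Basal keratins held 38.1% in treated and 29.0% in untreated knockout skin, and 42.9% in treated and 44.4% in untreated wild-type skin. Their summed level was higher with MC903 in both, at 3389 to 4744 FPKM treated and 1895 to 2170 FPKM untreated in knockout skin. The wild-type sums were 12144 to 17056 FPKM treated and 1620 to 1877 FPKM untreated.

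**Figure D3:**
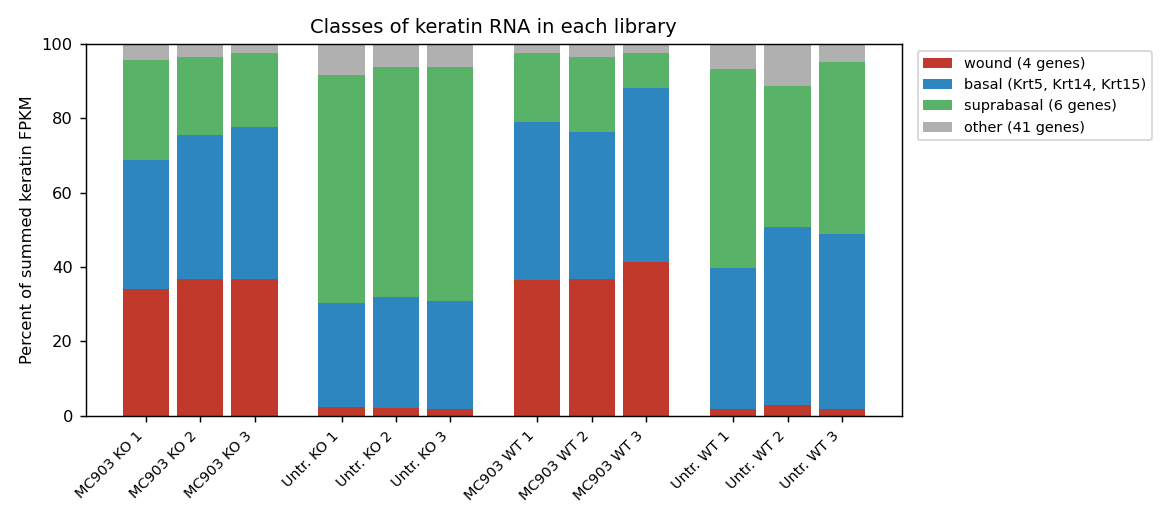
Stacked shares, in percent of the summed FPKM of 54 keratin genes, of wound, basal, suprabasal and other keratins in each library. Wound keratins take 33.96% to 36.9% in treated knockout and 36.5% to 41.4% in treated wild-type libraries, against at most 2.75% in untreated ones.

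The basal pair is the natural partner for comparison because the same cells can hold both sets. Krt14 rose in both genotypes, by 1.62 ± 0.19 on the log2 scale in knockout skin (SE, limma adjusted p = 5.9e-05) and by 3.80 ± 0.19 in wild-type skin (limma adjusted p = 5.3e-08). Its type II partner Krt5 had -0.32 ± 0.19 in knockout skin (limma adjusted p = 0.18) and rose by 1.81 ± 0.19 in wild-type skin (limma adjusted p = 8.5e-06). Krt15, a keratin of quiescent basal and follicle bulge cells, fell in both. The 4 wound keratins over Krt5 and Krt14 summed, a ratio chosen after the data had been seen, was 0.950 in treated and 0.0814 in untreated knockout skin, and 0.902 in treated and 0.0583 in untreated wild-type skin. The log2 ratio was 3.75 higher with MC903 (exact permutation test, two-sided p = 0.005). Of the 6 suprabasal keratins 2 rose and 3 fell in knockout skin, and 3 rose in wild-type skin, or 5 without treated wild-type replicate 3. The count of 2 was 1 with no filter on low values and with scaling to TPM. It was also 1 without treated knockout replicate 1 or 2 and without untreated knockout replicate 1 or 3. Of all genes 25% rose and 23% fell in knockout skin, and 32.6% rose in wild-type skin. Krt1 rose in both and Krt77 fell in knockout skin, with 2.48 ± 1.65 FPKM treated and 62.0 ± 12.4 FPKM untreated.

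After MC903 all 4 wound keratins were lower in skin labelled knockout than in wild-type skin, and no library of one group overlapped the other. In that comparison 26.1% of all genes were called lower and 31.7% did not overlap in that direction. The log2 fold change was -1.44 ± 0.27 for Krt6a (SE, limma adjusted p = 0.0010) and -1.75 ± 0.46 for Krt6b (limma adjusted p = 0.0085). For Krt16 it was -1.96 ± 0.51 (limma adjusted p = 0.0074) and for Krt17 -1.47 ± 0.20 (limma adjusted p = 0.00012). The median of the 4 was -1.61, and that of all genes -0.03.

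Other keratins of the interfollicular epidermis were lower in treated knockout skin by similar amounts. Krt5 differed by -1.86 ± 0.19 (SE, limma adjusted p = 1.9e-05) and Krt14 by -1.79 ± 0.19 (limma adjusted p = 2.6e-05) on the log2 scale, and all 3 basal keratins and 3 of 6 suprabasal keratins were lower, or 5 of 6 without treated wild-type replicate 3. Set against Krt5 and Krt14 in the same library, the wound keratins had a ratio of 0.913 to 0.987 in treated knockout libraries and 0.869 to 0.943 in treated wild-type libraries. These ranges overlapped, and the log2 difference was 0.07 (exact permutation test over 20 assignments, two-sided p = 0.2, where 0.1 is the smallest possible). Their share of all keratin FPKM differed by -2.41 percentage points (exact permutation test, two-sided p = 0.5). Within the set, Krt6b over Krt6a was 1.02 to 1.10 in treated knockout and 1.16 to 1.59 in treated wild-type libraries, and type II over type I was 0.932 to 1.02 and 0.808 to 0.849 in these groups. Neither pair of ranges overlapped (exact permutation test, two-sided p = 0.1 each, the smallest possible, and an adjusted p of 0.25 over the 5 quantities). Krt16 over Krt17 overlapped, at 2.17 to 2.62 in treated knockout and 2.57 to 4.25 in treated wild-type libraries. Markers of other cells moved with these differences. Of all genes 25.9% were called higher in treated knockout skin. All 6 fibroblast markers were higher there, summing to 1681 to 2161 FPKM against 519 to 645 FPKM in treated wild-type skin, and so were all 5 leukocyte markers, at 696 to 1103 FPKM against 287 to 345 FPKM. All 4 skeletal muscle markers were lower, at 337 to 525 FPKM against 831 to 1319 FPKM. Of 4 adipocyte markers 2 were higher, and of 4 sebaceous gland markers 2 were higher and 1 lower. The part of cell composition in the lower keratin levels was not tested.

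Without treatment the wound keratins stood higher in knockout skin, the opposite order, and this was far less firm. By the same test 3 of 4 passed, Krt6b with a log2 fold change of 1.59 ± 0.46 (SE, limma adjusted p = 0.0486), Krt16 with 2.18 ± 0.51 (limma adjusted p = 0.0206) and Krt17 with 0.68 ± 0.20 (limma adjusted p = 0.0482), while 7.15% of all genes were called higher. Krt6a had 0.66 ± 0.27 (limma adjusted p = 0.13), with a 95% interval of 0.07 to 1.24 before adjustment. The library values overlapped between genotypes for Krt6a and Krt6b and not for Krt16 and Krt17, and 16.9% of all genes did not overlap in the upward direction. Without untreated wild-type replicate 3, the low library, only Krt16 passed, with 1.58 (limma adjusted p = 0.025). Without untreated knockout replicate 1 or replicate 2 none of the 4 passed, and without untreated knockout replicate 3 all 4 did. Leaving out untreated wild-type replicate 1, or any 1 of the 6 treated libraries, also left a count of 1. Over Krt5 and Krt14 the log2 ratio of the wound keratins was 0.48 higher in untreated knockout skin (exact permutation test, two-sided p = 0.1, the smallest possible, adjusted p = 0.17). The wound keratin share of all keratin FPKM differed by only -0.02 percentage points (exact permutation test, two-sided p = 0.9). Of 6 suprabasal keratins 3 were also called higher in untreated knockout skin, with counts of 0 to 5 in the alternatives run. Fibroblast markers moved with this comparison too, summing to 4427 to 5128 FPKM in untreated knockout and 1100 to 1987 FPKM in untreated wild-type skin. All 4 adipocyte markers were lower in untreated knockout skin, summing to 149 to 164 FPKM against 243 to 376 FPKM in untreated wild-type skin, while 4.55% of all genes were called lower. The count of 4 was 2 without untreated knockout replicate 1 or 2 and without untreated wild-type replicate 2. The part of these cell types in the keratin difference was not tested.

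The MC903 response itself, the log2 fold change in knockout skin minus that in wild-type skin, was smaller in knockout skin for every wound keratin. The difference was -2.09 ± 0.38 for Krt6a (SE, limma adjusted p = 0.0015), -3.34 ± 0.66 for Krt6b (limma adjusted p = 0.0025), -4.14 ± 0.72 for Krt16 (limma adjusted p = 0.0012) and -2.15 ± 0.28 for Krt17 (limma adjusted p = 0.00026). All 4 were called, beside 19.7% of all genes in that direction, and the value of Krt16 ranked 6 by size. Both the higher resting and the lower treated level enter this difference. Without untreated wild-type replicate 3 the values were -1.88 for Krt6a, -2.88 for Krt6b, -3.54 for Krt16 and -1.93 for Krt17, and all remained called.

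**Figure D4:**
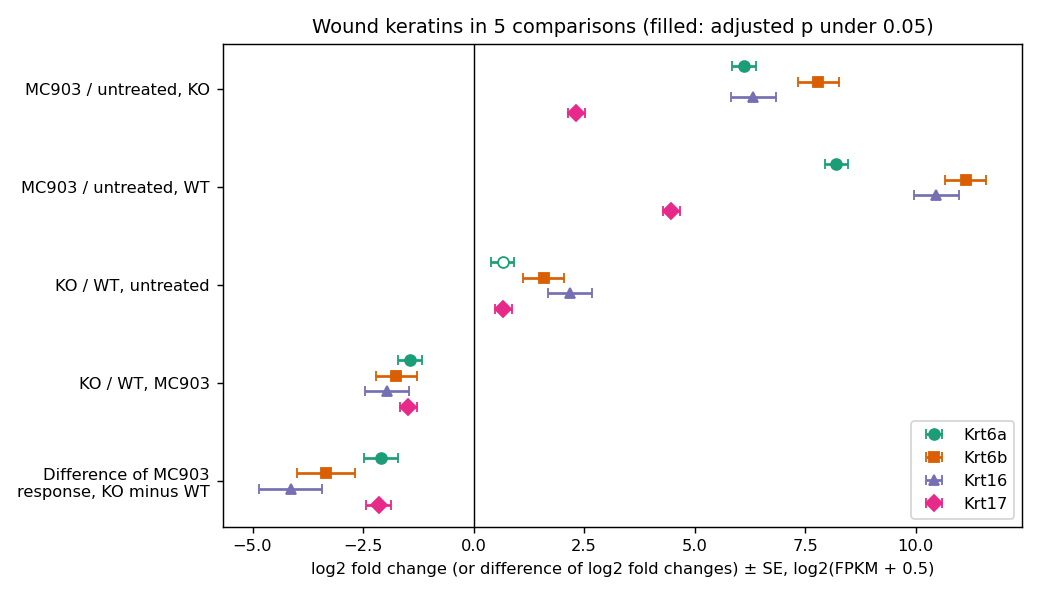
Log2 fold changes of the 4 wound keratins ± SE from limma in the 5 comparisons, on log2(FPKM + 0.5), with filled symbols where the adjusted p is under 0.05. Changes with MC903 are positive in both genotypes, the treated genotypes differ by -1.44 to -1.96, and Krt6a in untreated skin, at 0.66, is the only open symbol.

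Most keratin-binding proteins were also lower in treated knockout skin, though fewer so with values scaled to TPM. This list, of plakins, plakophilins and cytosolic partners that anchor or bind keratin filaments, had 4 of 12 higher and 3 lower in knockout skin with MC903, and 10 higher and 1 lower in wild-type skin. Of all genes 25% rose and 23% fell in knockout skin, and 32.6% rose and 30.3% fell in wild-type skin. After MC903, 9 of 12 were lower and 0 higher in knockout skin, beside 26.1% of all genes called lower. With values scaled to TPM 5 of 12 were lower and 2 higher, beside 37.9% of all genes called higher. Sfn encodes 14-3-3 sigma, a K17-binding protein, and had 390 ± 54.9 FPKM in treated and 217 ± 31.1 FPKM in untreated knockout skin. In wild-type skin Sfn had 1129 ± 155 FPKM with MC903 and 93.1 ± 13.0 FPKM without. The plakophilin gene Pkp3, a desmosomal component, had a response of 0.71 ± 0.16 in knockout and 2.84 ± 0.16 in wild-type skin (SE, limma adjusted p = 0.0039 and 1.2e-07).

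Genes of wounded epidermis other than keratins also rose with MC903. Of 10 such genes 10 rose in knockout skin and 9 in wild-type skin, beside 25% and 32.6% of all genes. Both scaling to TPM and scaling by total reads left 9 in knockout skin. Between the treated genotypes 5 of 10 were higher and 1 lower in knockout skin, beside 25.9% and 26.1% of all genes. In untreated skin 3 of 10 were higher, beside 7.15% of all genes. The count of 5 between the treated genotypes was 3 without treated knockout replicate 2. The response differed between genotypes for 1 of 10, the cornified envelope precursor Sprr1a (-3.19 ± 0.48 SE, limma adjusted p = 0.00056). A larger response in knockout skin was called for 0 of the 10, or 2 without treated knockout replicate 1, and for 20% of all genes. With values scaled to TPM it was called for 3 of the 10 and for 30.5% of all genes. Tnc, the matrix protein tenascin-C, rose by 1.99 ± 0.10 in knockout and 1.79 ± 0.10 in wild-type skin, with a difference of 0.20 ± 0.13 (SE, limma adjusted p = 0.25). Mmp13, a collagenase, had 99.4 ± 31.6 FPKM in treated and 0.516 ± 0.431 FPKM in untreated knockout skin, and 63.1 ± 25.9 FPKM in treated and 0.225 ± 0.224 FPKM in untreated wild-type skin.

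Genes of the EGF receptor and its ligands, whose signalling is a known inducer of the wound keratins, were counted in the same way. Of these 7 genes 3 rose and 2 fell in knockout skin, where 25% of all genes rose and 23% fell. In wild-type skin 4 rose, beside 32.6% of all genes. Scaling to TPM or by total reads gave 3 that rose there, and scaling to TPM gave 1 that fell. After MC903, 2 of 7 were lower and 1 higher in knockout skin, beside 26.1% and 25.9% of all genes. In the alternatives run these counts were 0 to 4 and 0 to 2. The response was smaller in knockout skin for 4 of 7 and larger for 0, beside 19.7% and 20% of all genes. The count of 4 was 3 to 4 in the alternatives run. Areg, which encodes amphiregulin, had 34.6 ± 6.92 FPKM in treated and 0.483 ± 0.386 FPKM in untreated knockout skin, and 37.8 ± 7.67 FPKM in treated and 0.520 ± 0.457 FPKM in untreated wild-type skin. Its response differed by -0.13 ± 0.52 (SE, limma adjusted p = 0.86). Epgn, which encodes epigen, rose by 5.94 ± 0.28 in knockout and 5.39 ± 0.28 in wild-type skin. Hbegf rose less in knockout skin, by 0.91 ± 0.20 against 2.35 ± 0.20 in wild-type skin, and the difference of -1.44 ± 0.28 passed (SE, limma adjusted p = 0.0023).

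Of 14 transcription factors linked to these keratins, among them the AP-1 family, Stat3, Trp63 and Nfe2l2, 7 rose and 4 fell in knockout skin, and 11 rose and 2 fell in wild-type skin. Both other scalings gave 9 that rose in wild-type skin. Of all genes 25% rose and 23% fell in knockout skin, and 32.6% rose and 30.3% fell in wild-type skin. After MC903, 5 of 14 were lower and 1 higher in knockout skin, beside 26.1% and 25.9% of all genes. Scaling to TPM left 2 lower and 3 higher, beside 37.9% of all genes called higher. Junb, an AP-1 subunit, had 113 ± 15.4 FPKM in treated and 52.0 ± 13.6 FPKM in untreated knockout skin, and 202 ± 7.16 FPKM in treated and 20.1 ± 5.90 FPKM in untreated wild-type skin. Its response differed by -2.20 ± 0.31 (SE, limma adjusted p = 0.00039). Stat3 rose by 0.94 ± 0.09 in knockout and 1.16 ± 0.09 in wild-type skin, with a difference of -0.23 ± 0.13 (SE, limma adjusted p = 0.18). Of 7 targets of Nrf2, the factor encoded by Nfe2l2 that also acts on Krt6 and Krt16 genes, 5 rose in each genotype. Both other scalings gave 4 that rose in each genotype and 2 that fell in wild-type skin. Hmox1 rose by 2.05 ± 0.10 in knockout and 1.83 ± 0.10 in wild-type skin.

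Among 12 receptors for cytokines that act on keratinocytes 8 rose and 1 fell in knockout skin and 10 rose in wild-type skin. Of all genes 25% rose and 23% fell in knockout skin, and 32.6% rose in wild-type skin. With values scaled to TPM 6 of the 12 rose in knockout skin, and 9 rose and 2 fell in wild-type skin. Il17rc, a subunit of the receptor for the wound keratin inducer IL-17, had 22.1 ± 1.29 FPKM in treated and 20.1 ± 1.24 FPKM in untreated knockout skin. Wild-type skin had 84.4 ± 4.64 FPKM with MC903 and 14.8 ± 2.08 FPKM without, so its response differed by -2.35 ± 0.14 (SE, limma adjusted p = 2.0e-05). Il4ra, the shared receptor chain for IL-4 and IL-13, rose by 2.98 ± 0.15 in knockout and 3.04 ± 0.15 in wild-type skin, with a difference of -0.06 ± 0.21 (SE, limma adjusted p = 0.85). All 12 cell cycle genes rose in both genotypes, and under scaling to TPM or to total reads 11 of 12 did in wild-type skin. Mcm5, part of the replicative helicase, rose by 1.70 ± 0.14 in knockout and 2.55 ± 0.14 in wild-type skin. After MC903, 5 of the 12 were lower in knockout skin, beside 26.1% of all genes. That count was 0 with values scaled to TPM and 3 with scaling by total reads. It was 2 without treated knockout replicate 3 or treated wild-type replicate 1, and 3 without treated knockout replicate 1 or treated wild-type replicate 2.

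The listed hair follicle genes, which mark the place where these keratins are found at rest, mostly did not follow them. Outside the lists, the keratins Krt36 and Krt84, named after their values were seen, were far higher with MC903. Krt36 had 50.5 to 169 FPKM in treated and 1.19 to 1.32 FPKM in untreated knockout skin. In wild-type skin it had 266 to 489 FPKM treated and 0.0939 to 0.860 FPKM untreated. Krt84 had 38.4 to 117 and 1.57 to 2.48 FPKM in those knockout groups, and 179 to 412 and 0.0396 to 0.552 FPKM in those wild-type groups. Of 9 companion layer and outer root sheath genes 1 rose and 7 fell in knockout skin, where 25% of all genes rose and 23% fell. In wild-type skin 2 rose and 5 fell, where 32.6% of all genes rose and 30.3% fell. The riser in both was Krt75, a type II keratin of the companion layer, with 56.9 ± 13.7 FPKM in treated and 5.91 ± 2.57 FPKM in untreated knockout skin, and 59.8 ± 10.1 FPKM in treated and 3.54 ± 2.10 FPKM in untreated wild-type skin. Krt75 did not differ by genotype after MC903 by this test (-0.09 ± 0.37 SE, limma adjusted p = 0.86), where the wound keratins did. Of 15 hair shaft and inner root sheath genes 14 fell and 1 rose in knockout skin, and 1 rose in wild-type skin, but these counts rested on single libraries. In knockout skin 2 fell without treated replicate 2 or without untreated replicate 1, 5 without treated replicate 3, 6 and 7 without untreated replicates 2 and 3, and 9 without treated wild-type replicate 2. In wild-type skin 10 fell without untreated replicate 3. The difference of responses was called for 0 of the 15 by limma, or 3 without untreated wild-type replicate 2. The riser was Tchh, which encodes trichohyalin, with 248 ± 55.6 FPKM in treated and 34.7 ± 22.7 FPKM in untreated knockout skin, and 276 ± 90.8 FPKM in treated and 9.38 ± 10.6 FPKM in untreated wild-type skin. Of 9 keratins of simple and mucosal epithelia 5 passed the filter, of which 4 fell in knockout skin, and 1 rose and 2 fell in wild-type skin.

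**Figure D5:**
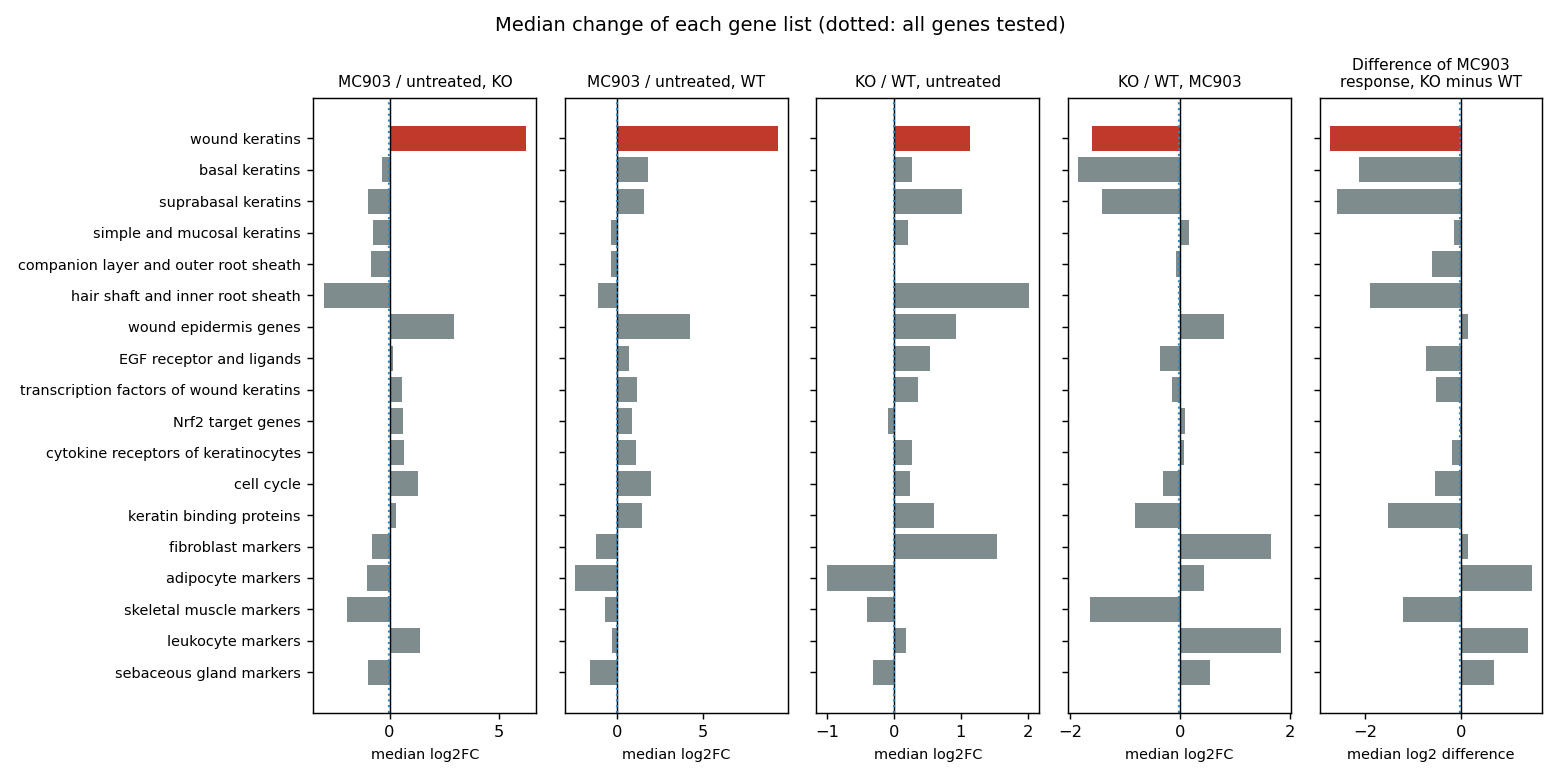
Bars of the median log2 fold change of each gene list in the 5 comparisons, with wound keratins in red and a dotted line at the median of all genes tested. The wound keratins have medians of 6.22 and 9.34 with MC903 in knockout and wild-type skin, and -1.61 between the treated genotypes.

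The 4 genes varied together over the 12 libraries, with Pearson correlations of log2 levels of 0.984 to 0.998 between pairs, which reflect mostly the gap between treated and untreated libraries. The genes most like each member were named by that same correlation over 12 libraries, with the other members and genes with Gm-number or Rik names left out. For Krt6a the nearest was Sprr2a3 (r = 0.998), for Krt6b Sprr2g (r = 0.998), for Krt16 Gjb6 (r = 0.998) and for Krt17 Cdk6 (r = 0.994). Sprr2a3 and Sprr2g are small proline-rich genes of the cornified envelope, a family of close copies in which reads may be split. Gjb6 encodes connexin 30, a gap junction protein, and had 67.1 ± 12.7 FPKM in treated and 2.80 ± 0.679 FPKM in untreated knockout skin, and 162 ± 8.22 FPKM in treated and 0.867 ± 0.616 FPKM in untreated wild-type skin. Slc10a6, a transporter of sulfated steroids, was among the 5 nearest genes of Krt6a, Krt6b and Krt16, and Gjb2, which encodes connexin 26, among those of Krt16. The neighbours of Krt17 were others, including Cdk6, a cell cycle kinase, with 8.41 ± 1.11 FPKM in treated and 2.60 ± 0.295 FPKM in untreated knockout skin, and 15.3 ± 0.329 FPKM in treated and 2.30 ± 0.652 FPKM in untreated wild-type skin. The ubiquitin-conjugating enzyme Ube2c and P-cadherin, encoded by Cdh3, came next for Krt17.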

How the data were processed

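The deposited file gives gene-level FPKM for 12 skin libraries, and the authors' values were used as supplied. Per the submitters' processing notes, reads were counted with featureCounts on mm10. Aligner, annotation release and handling of reads that fit several genes: not given in the sources used here. Dorsal root ganglion libraries (3) were not analysed here. FPKM times gene length gave whole reads for 100% of values within 0.01 read, with a scale between libraries that followed median-of-ratios within 0.566%.

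Genes with FPKM of at least 0.5 in at least 3 libraries were fitted with limma (log2(FPKM + 0.5), eBayes with trend, 8 residual degrees of freedom). Fold changes on this scale understate the change of low genes. All adjusted p-values of genes come from limma and are two-sided. Ratios within a library were compared by exact permutation tests. The procedure was tested on simulated data. The members, gene lists and tests were chosen with earlier results of these data known. Named genes are the members, basal and suprabasal keratins, up to 3 genes of each other list by adjusted p for MC903 in wild-type skin, and the 5 genes most correlated with each member. For the latter the other members and genes with Gm-number or Rik names were left out. Pdgfra, Krt36 and Krt84 were named after their values were seen. R 4.3.3, limma 3.58.1, Python 3.11.15, numpy 2.4.6, pandas 2.3.3 and matplotlib 3.10.9 were used.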

Additional observations from a re-analysis of the deposited data

Results flagged for a closer look

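The response to MC903 differed between the genotypes for each of the 4 wound keratins, by a test of the difference itself. The log2 fold change in skin labelled knockout minus that in wild-type skin was -2.09 for Krt6a, -3.34 for Krt6b, -4.14 for Krt16 and -2.15 for Krt17 (limma adjusted p of 0.0015, 0.0025, 0.0012 and 0.00026). Of all genes 19.7% had a lower response in knockout skin by the same test.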

How the results depend on the processing

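With MC903 against untreated skin in either genotype, between the treated genotypes and for the difference of responses, each of the 4 wound keratins kept its direction and its call in all 22 or 23 alternatives run (adjusted p of at most 0.0347 by limma). The alternatives were other pseudocounts, filters and scalings, limma voom on recovered reads, robust moderation, library weights, a replicate block, fits of only the groups compared and leaving out each library. By the exact permutation test the ratios with MC903 against untreated skin had p = 0.005 in all alternatives run. Treated and untreated libraries did not overlap, so leaving out a library could only return this smallest p. The log2 difference ranged from 2.05 to 2.62 for Krt6b over Krt6a and from 4.81 to 5.13 for Krt16 over Krt17. For type II over type I it ranged from 2.73 to 2.89, and for wound keratins over Krt5 and Krt14 from 3.67 to 3.81.

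The untreated comparison of genotypes was not stable. Of 3 wound keratins called, 1 remained with no filter, with scaling to TPM and with scaling by total reads, and 0 in the fit of only the groups compared. Leaving out 1 library gave 0 to 4. Krt6b lost its call in 17 of 23 alternatives, Krt17 in 14 and Krt16 in 3. The count of all genes called there was 2064, against 6548 with library weights, 613 in the fit of only the groups compared and 752 to 3562 when 1 library was left out. The causes were not tested.

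Scaling to TPM moved the median log2 fold change of all genes to -0.16 in knockout and -0.36 in wild-type skin with MC903, to 0.21 between treated genotypes and to 0.22 for the difference of responses. The share of called genes that were higher became 33.6% in place of 52.1%, 26.7% in place of 51.8%, 73.5% in place of 49.8% and 71.7% in place of 50.3%. Scaling by total reads made it 40.0% in place of 51.8% in wild-type skin, 61.9% in place of 50.3% for the difference of responses and 49.7% in place of 61.1% between untreated genotypes. The wound keratins kept their directions under both.

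The replicate numbers did not pair the samples, with correlations of same-numbered deviations of -0.130 to 0.141. With replicate number as a block the counts of all genes called were 8471, 11176, 2124, 9304 and 7046 in the 5 comparisons, and the counts of wound keratins 4, 4, 3, 4 and 4 were those without it.

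Counts of called genes in the gene lists moved by over 1.5 times in 282 of 3876 recomputed counts. Depth limits Krt6b most, with 11 reads in the lowest untreated wild-type library.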
